A study of Mus musculus with 12 samples.

Results

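The unfolded protein and ATF4 stress response was followed through 35 listed genes, found by their symbols among the 25208 genes of the deposited table. The members were 14 chaperones and folding enzymes of the endoplasmic reticulum (ER), 5 genes of ER-associated degradation, 4 genes of the stress sensors and Xbp1, and 12 genes of the ATF4 branch. All 35 passed the filter on low counts. The cells were mpkCCDc11, a clonal immortalised mouse line from the kidney collecting duct. They were polarised on permeable supports for 4 days and kept for 24 h in medium free of serum and hormones. The 4 groups of 3 libraries were cells with 50 nM Ctnnb1 siRNA and 1 nM dDAVP for 24 h, with 50 nM Ctnnb1 siRNA and vehicle, with 50 nM control siRNA and 1 nM dDAVP for 24 h, and with 50 nM control siRNA and vehicle. dDAVP is an agonist of the vasopressin V2 receptor, and Ctnnb1 encodes beta-catenin. The comparisons ask how the agonist, the knockdown and their combination act on gene expression.

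The libraries held 32997720 to 48935473 counted reads each. Ctnnb1 had 326 to 342 CPM (counts scaled to library size) with Ctnnb1 siRNA and dDAVP, 306 to 334 with Ctnnb1 siRNA and vehicle, 776 to 811 with control siRNA and dDAVP, and 745 to 766 with control siRNA and vehicle. The 12 principal cell and 6 epithelial markers looked for were all in the table, and 9 and 6 of them passed the filter on low counts. Levels of markers were summed in TPM, a unit scaled to transcript length and library size. The sums stayed under 1 TPM in every library for thick limb and distal tubule (2 of 5 listed markers in the table), fibroblast (3 of 7) and endothelium (3 of 5). Summed markers of other types were higher, at 60.7 to 78.1 TPM for intercalated cell (3 of 8 listed markers in the table), 8.35 to 13.4 for proximal tubule (4 of 7) and 3.88 to 8.13 for leukocyte (3 of 6). Replicate 3 of Ctnnb1 siRNA with dDAVP stood apart from its group, with a chi-square per degree of freedom of 42.8 and 69.4 against its 2 partners, where the other pairs of one group lay between 5.34 and 25.4. Its share of mitochondrial ribosomal RNA was the highest of the 12 libraries, at 1.52%. Nothing in the labels states that the replicates of a group came from different cultures. The p-values therefore cover only how far these libraries scatter, which may be technical.

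When unfolded proteins collect in the ER, the chaperone BiP (Hspa5) leaves 3 sensors in its membrane. IRE1 (Ern1) splices the Xbp1 messenger into the form that encodes an active transcription factor, ATF6 is cut in the Golgi to release its own factor, and PERK (Eif2ak3) phosphorylates the translation factor eIF2alpha. XBP1 and ATF6 raise chaperones and degradation genes. Phosphorylated eIF2alpha lowers protein synthesis in general but favours translation of ATF4, which raises genes of amino acid synthesis and uptake, and also Ddit3 (CHOP) and Ppp1r15a, whose product removes the phosphate again. Other kinases that sense lack of amino acids, haem or double-stranded RNA feed into the same eIF2alpha site, so that ATF4 targets can move without ER stress. The deposited counts are per gene and do not separate spliced from unspliced Xbp1, nor messenger from ATF4 protein.

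The 2 arms differ in the elements they are known to use, so the promoters were searched for 5 motifs on both strands, in RefSeq windows of GRCm38.p6 from 250 bases before to 50 after each start. Windows were found for 31 of the 35 members, and not for Manf, Hyou1, Atf6 and Cth. The ER stress element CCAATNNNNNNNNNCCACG, bound by ATF6, was in 9 of the 31 members (29.0%), against 0.137% of all 27025 genes with a window. They were Hspa5, Hsp90b1, Calr, Canx, Pdia6, Dnajc3, Creld2, Syvn1 and Derl3. The members were listed as genes of this response, so a high share of its known element among them is no test. Its second form, ATTGG and CCACG with any 1 base between them, was in Herpud1 and Dnajb11 (6.45% of members, 0.0444% of all genes). The core of the C/EBP-ATF response element, TGATGNAA, was in Herpud1, Trib3, Chac1 and Asns (12.9%, against 4.51%). The cAMP response element TGACGTCA was in Ppp1r15a (3.23%, against 2.03%), and the element TGACGTGG in 0 of the 31 (against 0.714%). No match shared a base with a match of another motif.

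The stretches below set 2 chaperone promoters, and a degradation gene with the same element, beside the ATF4-branch promoters and beside Herpud1, which carries an element of both kinds. Each runs 5′ to 3′ on the strand of its gene, with the match in capitals. Matches at Calr, Chac1 and the C/EBP-ATF match at Herpud1 lie on the opposite strand, so the capitals there are the reverse complement of the letters searched.
Hspa5 (chr2:34772013-34772055, plus strand): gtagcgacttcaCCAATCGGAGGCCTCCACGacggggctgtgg
Calr (chr8:84847063-84847105, minus strand): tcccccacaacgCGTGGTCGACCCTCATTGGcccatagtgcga
Syvn1 (chr19:6046520-6046562, plus strand): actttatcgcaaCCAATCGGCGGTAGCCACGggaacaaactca
Herpud1 (chr8:94386305-94386399, plus strand): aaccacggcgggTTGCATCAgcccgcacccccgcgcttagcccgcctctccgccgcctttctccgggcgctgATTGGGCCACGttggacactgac
Asns (chr6:7693213-7693244, minus strand): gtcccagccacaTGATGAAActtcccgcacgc
Chac1 (chr2:119351037-119351068, plus strand): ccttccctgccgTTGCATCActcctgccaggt
Ppp1r15a (chr7:45526269-45526292, minus strand): ccgcctctccggTGACGTCAgcac
The element began 65 bases before the start of Hspa5, 162 before that of Calr and 44 before that of Syvn1. At Herpud1 the C/EBP-ATF match began 112 and the ER stress element II 52 bases before the start. A match is a description of letters and not evidence of binding.

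The members spanned a wide range of levels. By TPM, the most abundant chaperone was Hsp90b1 (GRP94), with a mean of 567 over the 12 libraries, and the least abundant Dnajb9, a J-domain cofactor of BiP, with 18.5. Among the degradation genes, Herpud1, which helps assemble the ubiquitin ligase complex of the ER membrane, was highest at 69.5 and Derl3 lowest at 1.46. Xbp1 had 71.4 and Ern1 6.25, the ends of the range of the 4 sensor genes. In the ATF4 branch, Phgdh, the first enzyme of serine synthesis, had 509 and Cth, which makes cysteine from cystathionine, 6.64. Hspa5 and Atf4 themselves were among the abundant messengers, at ranks 268 and 252 of the 25208 genes by mean TPM. Exons of 11 members overlap those of another gene in GENCODE M21. On the other strand the longest overlaps were 415 bases for Hsp90b1, 485 for Eif2ak3, 166 for Manf, 91 for Syvn1 and 82 for Atf5, and whether counting used the strand is not given in the sources used here. On the same strand, where strand does not separate reads, Hsp90b1 overlaps Gm25745 (133 bases) and Gm15344 (84), Manf overlaps Rbm15b (14) and Pdia4 overlaps Mir704 (14). Xbp1, Herpud1, Asns, Sesn2, Psat1, Hspa5, Atf4 and Chac1 have no such overlap.

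**Figure D1:**
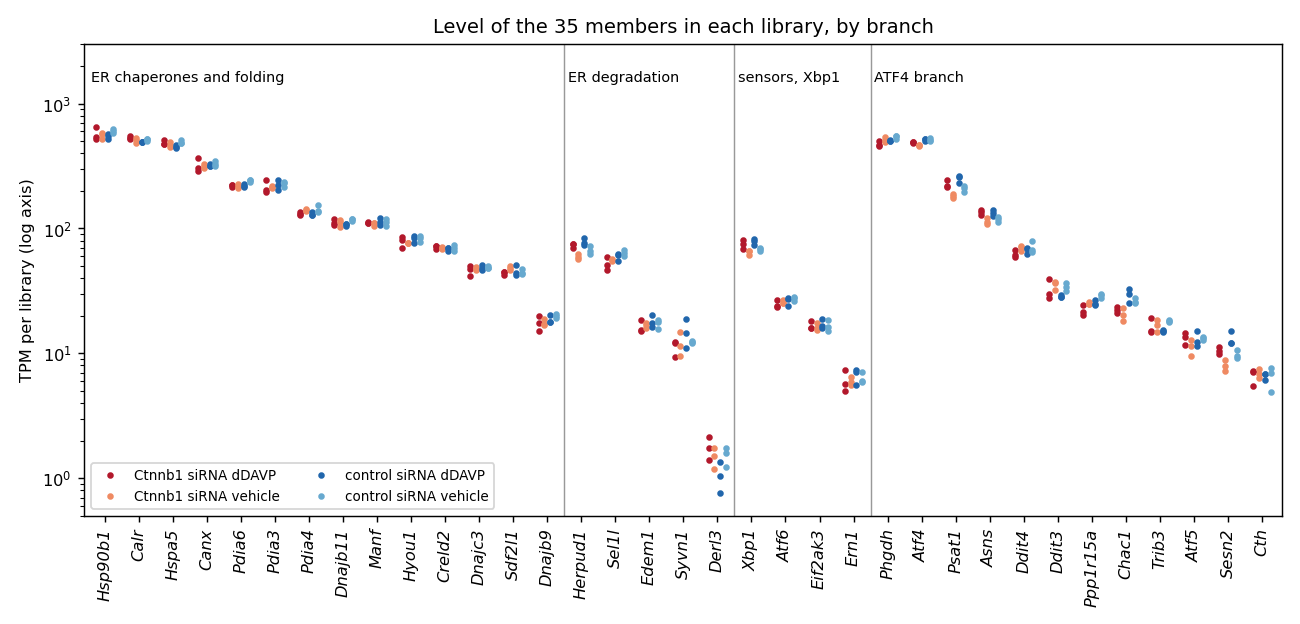
TPM of each of the 35 members (log axis) in each of the 12 libraries, with 3 points per group and the members ordered by mean level within their branch. Levels run from 1.46 TPM on average for Derl3 to 567 for Hsp90b1, and the 4 groups of a gene lie close together relative to the distances between genes.

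Averaged over the 2 siRNAs, dDAVP raised 5 of the 35 members and lowered 1. The 5 were Xbp1, Herpud1 and the ATF4-branch genes Asns, Sesn2 and Psat1, by 1.2-fold to 1.37-fold. The 1 lowered member was Ppp1r15a. Over all 16508 tested genes the same rule (edgeR, Benjamini-Hochberg adjusted p under 0.05) called 6.86% in this contrast, 4.33% higher and 2.54% lower, and of the members 17.1%, 14.3% higher and 2.86% lower. The median log2 fold change was 0.033 over the members and -0.0046 over all genes. The share lowered, 2.86%, is near the 2.54% of all genes. Members and lists were chosen with earlier results of these data known, so a higher share in them is no independent test. All genes also spread more between replicates, with a median SD of 0.115 on the log2 scale, against 0.068 to 0.11 in the member groups. In bulk RNA, fewer cells that express a gene and less of its RNA per cell cannot be told apart. Principal cell markers also moved with dDAVP, with summed levels of 115 to 136 TPM in Ctnnb1 siRNA dDAVP libraries, 99.4 to 102 with Ctnnb1 siRNA and vehicle, 132 to 154 with control siRNA and dDAVP, and 109 to 121 with control siRNA and vehicle (12 of 12 markers in the table). The 6 epithelial markers summed to 4340 to 4420, 3870 to 3950, 4190 to 4280 and 3840 to 4020 TPM in the same order of groups. The proximal tubule markers summed to 8.35 to 9.34 TPM with Ctnnb1 siRNA and dDAVP, 11 to 11.1 with Ctnnb1 siRNA and vehicle, 8.7 to 10.7 with control siRNA and dDAVP, and 11.3 to 13.4 with control siRNA and vehicle. Of that list Lrp2 was lower with dDAVP on average (log2 fold change -0.23, edgeR adjusted p = 0.00446). Lrp2 alone made up most of the sum, at 8.25 to 9.19 TPM with Ctnnb1 siRNA and dDAVP. The intercalated cell marker Atp6v0a4 was higher (1.91-fold, edgeR adjusted p = 3.67e-06). The summed intercalated cell markers overlapped between treatments within each siRNA. They came to 68.5 to 73.4, 66.6 to 70.9, 63.7 to 78.1 and 60.7 to 67.2 TPM in the same order of groups. Of the principal cell list, Aqp2 was higher with dDAVP on average (138-fold, edgeR adjusted p = 4.54e-09), with 0 to 6 reads in each vehicle library. So were Tmem45b (1.57-fold, edgeR adjusted p = 2.73e-06), Avpr2 (1.36-fold, 2.19e-04) and Aqp3 (2.02-fold, 0.00574). The other tested markers of the principal cell list were not called. The part of all these markers in the results was not tested.

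By edgeR, 0 of the 14 ER chaperones and folding enzymes passed the test in any of the 7 comparisons. Of all tested genes, between 0% (interaction) and 6.86% (average effect of dDAVP) were called. A list of 14 genes is too short to set 0 calls apart from these shares. Hspa5 (chr2:34772090-34776529 in GRCm38.p6), the main chaperone of the ER, had 645, 684 and 647 CPM with Ctnnb1 siRNA and dDAVP, 574, 614 and 647 with Ctnnb1 siRNA and vehicle, 576, 597 and 567 with control siRNA and dDAVP, and 631, 598 and 608 with control siRNA and vehicle. With control siRNA all 3 dDAVP values lay below the vehicle values, and with Ctnnb1 siRNA the groups overlapped. The dDAVP effect on Hspa5 had a log2 fold change of 0.11 with Ctnnb1 siRNA (edgeR adjusted p = 0.386) and of -0.08 with control siRNA (adjusted p = 0.542). Its average was 0.01, with a 95% interval of -0.06 to 0.09.

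The same held for the other 13 chaperones and folding enzymes. Across all 14, average log2 fold changes with dDAVP ran from -0.06 to 0.08, with a median of 0.019. The 95% intervals reached at most from -0.14 for Pdia4, a protein disulfide isomerase, to 0.17 for Manf, a secreted ER stress factor. The upper end equals a 1.13-fold rise, so a larger average rise lay outside the interval of every chaperone. edgeR called 0 of 14 for the average effect, DESeq2 and limma on log2 TPM also called 0, and 1, Hyou1, had an unadjusted p under 0.05, as did 19.1% of all genes (Hyou1 log2 fold change 0.08, adjusted p = 0.199). Hyou1 encodes a large nucleotide exchange factor for BiP. Their replicate spread was small, with a median SD of 0.068 on the log2 scale against 0.115 over all genes. Summed over the 14 genes, chaperone messengers came to 4085 ± 73.6 CPM with Ctnnb1 siRNA and dDAVP, 3869 ± 192 with Ctnnb1 siRNA and vehicle, 3773 ± 65 with control siRNA and dDAVP, and 3861 ± 47.3 with control siRNA and vehicle (SD, n = 3 each). In TPM the same sums, in the same order of groups, were 2949 ± 192, 2899 ± 96.5, 2870 ± 89 and 3048 ± 87.2. The group with the highest sum thus depended on the unit. The 9 members with the ER stress element in their promoter were not among the genes called with dDAVP. Over the whole table, 19 tested genes held that element and 1 of them was called for the average effect of dDAVP (5.26%, against 7.35% of all tested genes with a promoter window).

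Among the sensors, the change was in Xbp1, the factor made active by IRE1. Xbp1 (chr11:5520641-5525993) had 90.7, 87.9 and 90.2 CPM with Ctnnb1 siRNA and dDAVP, against 69.6, 75.8 and 77.3 with Ctnnb1 siRNA and vehicle. With control siRNA it had 85.1, 87.6 and 91.1 CPM with dDAVP, against 78.9, 71.2 and 72.4 with vehicle. All 6 dDAVP values lay above all 6 vehicle values. The log2 fold change was 0.27 ± 0.055 (SE) with Ctnnb1 siRNA and 0.25 ± 0.055 with control siRNA, and the average was 0.26 (1.2-fold, edgeR adjusted p = 5.20e-04). The sensors Ern1, Atf6 and Eif2ak3 were not called, with average log2 fold changes of 0.09, 0 and 0.08. The interval for Atf6 ran from -0.07 to 0.06.

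Of the 5 degradation genes, Herpud1 (chr8:94386429-94395371) rose with dDAVP. It had 73.3, 83 and 73.7 CPM with Ctnnb1 siRNA and dDAVP, against 55.9, 59.5 and 63.7 with Ctnnb1 siRNA and vehicle. With control siRNA it had 79.0, 76.4 and 74.8 CPM with dDAVP, against 65.8, 58.8 and 66.8 with vehicle. No dDAVP library fell within the range of the vehicle libraries. The log2 fold change was 0.36 ± 0.066 (SE) with Ctnnb1 siRNA and 0.26 ± 0.066 with control siRNA, and the average was 0.31 (1.24-fold, edgeR adjusted p = 4.97e-04). Herpud1 is the member whose promoter held both an ER stress element II and a C/EBP-ATF core. The partners of its complex did not pass the test: the ligase Syvn1 had an average log2 fold change of 0.14 (adjusted p = 0.572), its scaffold Sel1l -0.04 (0.593), and Edem1, a lectin that hands over misfolded glycoproteins, 0.04 (0.662). Derl3, a channel protein at 1.46 TPM, had an average log2 fold change of -0.14 with the widest interval of the 5, -0.54 to 0.27.

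**Figure D2:**
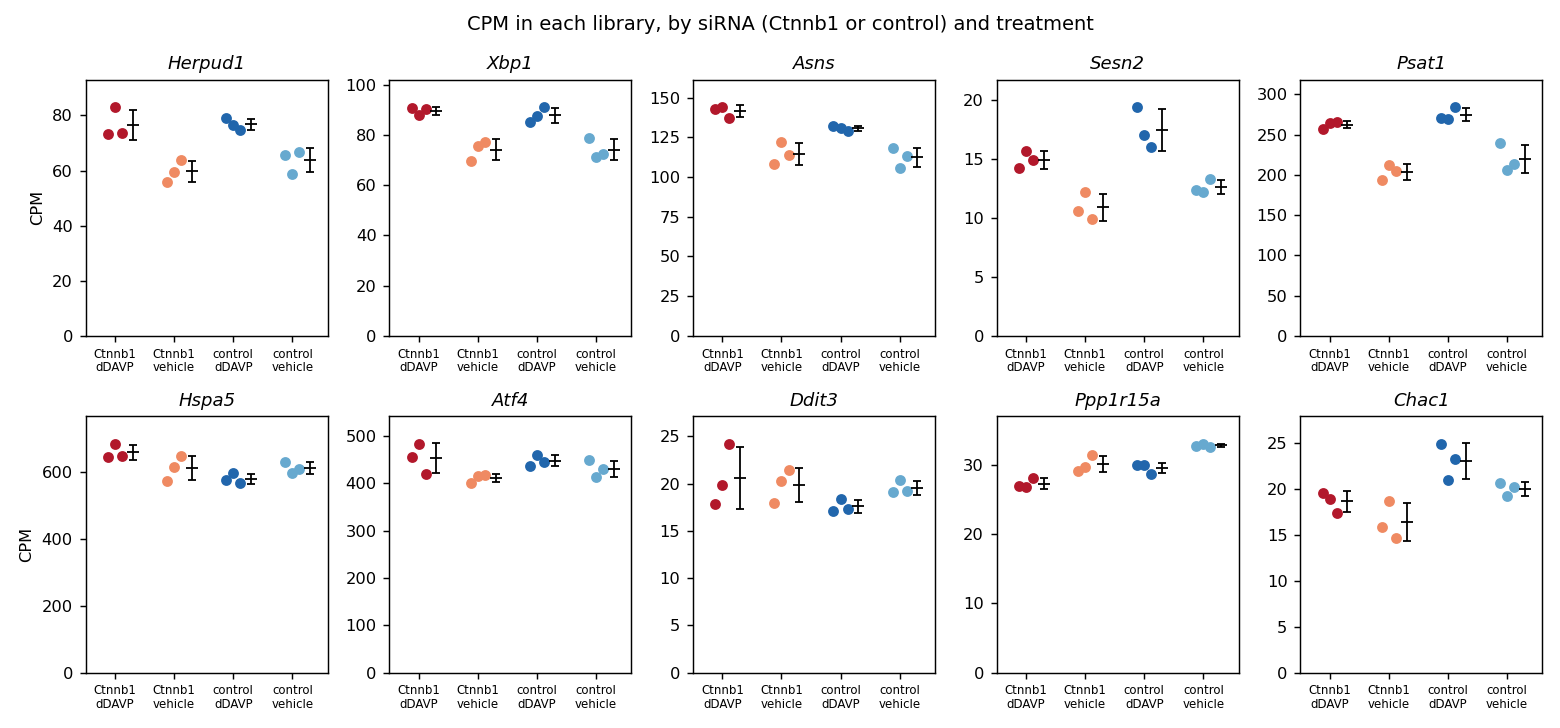
CPM of 10 members in each library, with 1 panel per gene, coloured points for the 3 libraries of a group and black bars for the mean ± SD (n = 3). For Herpud1, Xbp1, Asns, Sesn2 and Psat1 all dDAVP points lie above all vehicle points, whereas those of Hspa5, Atf4, Ddit3, Ppp1r15a and Chac1 overlap when the siRNAs are pooled.

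In the ATF4 branch, 3 of 12 members rose with dDAVP on average and 1 fell, while the transcription factors themselves were not called. That was 33.3% of the branch called, against 6.86% of all genes, 4.33% higher and 2.54% lower. Psat1 (chr19:15905123-15925059), the aminotransferase of serine synthesis, had 257, 264 and 265 CPM with Ctnnb1 siRNA and dDAVP, against 193, 212 and 205 with Ctnnb1 siRNA and vehicle. With control siRNA it had 271, 269 and 284 CPM with dDAVP, against 240, 206 and 213 with vehicle. The groups did not overlap under either siRNA. The log2 fold change was 0.37 ± 0.058 (SE) with Ctnnb1 siRNA and 0.32 ± 0.058 with control siRNA, and the average was 0.34 (1.27-fold, edgeR adjusted p = 5.80e-05), the lowest adjusted p of the 35 members.

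Asns (chr6:7675165-7693209) makes asparagine from aspartate and is a classical ATF4 target. It had 143, 144 and 137 CPM with Ctnnb1 siRNA and dDAVP, against 108, 122 and 114 with Ctnnb1 siRNA and vehicle. With control siRNA it had 132, 131 and 129 CPM with dDAVP, against 118, 106 and 113 with vehicle. Again every dDAVP value exceeded every vehicle value. The log2 fold change was 0.30 ± 0.055 (SE) with Ctnnb1 siRNA and 0.22 ± 0.055 with control siRNA, and the average was 0.26 (1.2-fold, edgeR adjusted p = 5.15e-04).

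Sesn2 (sestrin 2, chr4:132492804-132510456) restrains the growth kinase mTORC1 when leucine is scarce, and is induced by ATF4 and by p53. It showed the largest fold change of the called members and was one of the less abundant. Its CPM was 14.2, 15.7 and 14.9 with Ctnnb1 siRNA and dDAVP, against 10.6, 12.2 and 9.93 with Ctnnb1 siRNA and vehicle. With control siRNA it was 19.4, 17 and 16 with dDAVP, against 12.4, 12.2 and 13.3 with vehicle. All dDAVP values were above all vehicle values, and with dDAVP the Ctnnb1 siRNA values were below those of control siRNA. With vehicle the highest Ctnnb1 siRNA value and the lowest control siRNA value were both 12.2 as rounded. The log2 fold change with dDAVP was 0.45 ± 0.095 (SE) with Ctnnb1 siRNA and 0.47 ± 0.094 with control siRNA, and the average was 0.46 (1.37-fold, edgeR adjusted p = 3.72e-04).

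Atf4 (chr15:80255184-80257545), the transcription factor of the branch, had 456, 483 and 420 CPM with Ctnnb1 siRNA and dDAVP, 401, 415 and 417 with Ctnnb1 siRNA and vehicle, 437, 460 and 445 with control siRNA and dDAVP, and 448, 414 and 429 with control siRNA and vehicle. The values overlapped with control siRNA and did not with Ctnnb1 siRNA. Its average log2 fold change was 0.10 (95% interval 0.02 to 0.18, edgeR adjusted p = 0.159). Without replicate 3 of Ctnnb1 siRNA with dDAVP, the library that stood apart, Atf4 was called for the average effect (log2 fold change 0.12, adjusted p = 0.0251) and within Ctnnb1 siRNA (0.19, adjusted p = 0.039, against 0.14 and 0.227 with it). Atf5, a related factor, had an average log2 fold change of 0.15 (adjusted p = 0.352).

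Ddit3 (CHOP, chr10:127290793-127296291), the factor tied to cell death in prolonged stress, had 17.8, 19.8 and 24.2 CPM with Ctnnb1 siRNA and dDAVP, 17.9, 20.3 and 21.4 with Ctnnb1 siRNA and vehicle, 17.1, 18.4 and 17.3 with control siRNA and dDAVP, and 19.1, 20.4 and 19.2 with control siRNA and vehicle. Its dDAVP values were all below vehicle with control siRNA and overlapped vehicle with Ctnnb1 siRNA. The average log2 fold change was -0.05 (95% interval -0.20 to 0.10, edgeR adjusted p = 0.792). Exons of Ddit3 share 68 bases with Mars on the other strand. Trib3, a pseudokinase induced by CHOP and ATF4, was not called either (average log2 fold change -0.10, adjusted p = 0.435).

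Ppp1r15a (chr7:45522917-45526268) encodes GADD34, the phosphatase subunit that ends the response by restoring eIF2alpha. It had 27.0, 26.8 and 28.2 CPM with Ctnnb1 siRNA and dDAVP, against 29.2, 29.8 and 31.5 with Ctnnb1 siRNA and vehicle. With control siRNA it had 30.0, 30.1 and 28.8 CPM with dDAVP, against 32.8, 33.1 and 32.7 with vehicle. dDAVP values were below vehicle values under each siRNA, although the groups overlapped once the siRNAs were pooled. The average log2 fold change was -0.15 (1.11-fold lower, edgeR adjusted p = 0.0404). Leaving out 1 library, it was still called only without control siRNA dDAVP replicate 2 or Ctnnb1 siRNA dDAVP replicate 3. It ended without each of the other 10 libraries, with adjusted p-values of 0.0514 to 0.121. Its exons share 12 bases with Tulp2 on the other strand.

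The remaining ATF4-branch members were not called with dDAVP. Phgdh, which acts just before Psat1 in serine synthesis, had an average log2 fold change of -0.06 (95% interval -0.16 to 0.04). Cth had 0.02 (-0.20 to 0.24), and Ddit4 (REDD1), an mTORC1 inhibitor, -0.06 (-0.18 to 0.06). Chac1, a glutathione-degrading enzyme, had 0.19 (0.05 to 0.33, edgeR adjusted p = 0.101), and was called without Ctnnb1 siRNA vehicle replicate 2 (0.24, adjusted p = 0.0375). Over the 12 genes, ATF4-branch messengers summed to 1507 ± 72.1 CPM with Ctnnb1 siRNA and dDAVP, 1398 ± 54.7 with Ctnnb1 siRNA and vehicle, 1506 ± 28.5 with control siRNA and dDAVP, and 1433 ± 68.3 with control siRNA and vehicle (SD, n = 3 each). In TPM the same sums, in the same order of groups, were 1512 ± 30.9, 1471 ± 34.4, 1599 ± 44.6 and 1587 ± 35.1. In that unit the sums with dDAVP and vehicle differed by less than their SD with control siRNA. The median of the average log2 fold changes of these 12 genes was 0.059. Of the 330 tested genes with a C/EBP-ATF core in their promoter window, 6.36% were called for the average effect of dDAVP, against 7.35% of all tested genes with a window. Among the 394 tested genes with a cAMP response element, 18 were higher and 6 lower in this contrast (6.09%).

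**Figure D3:**
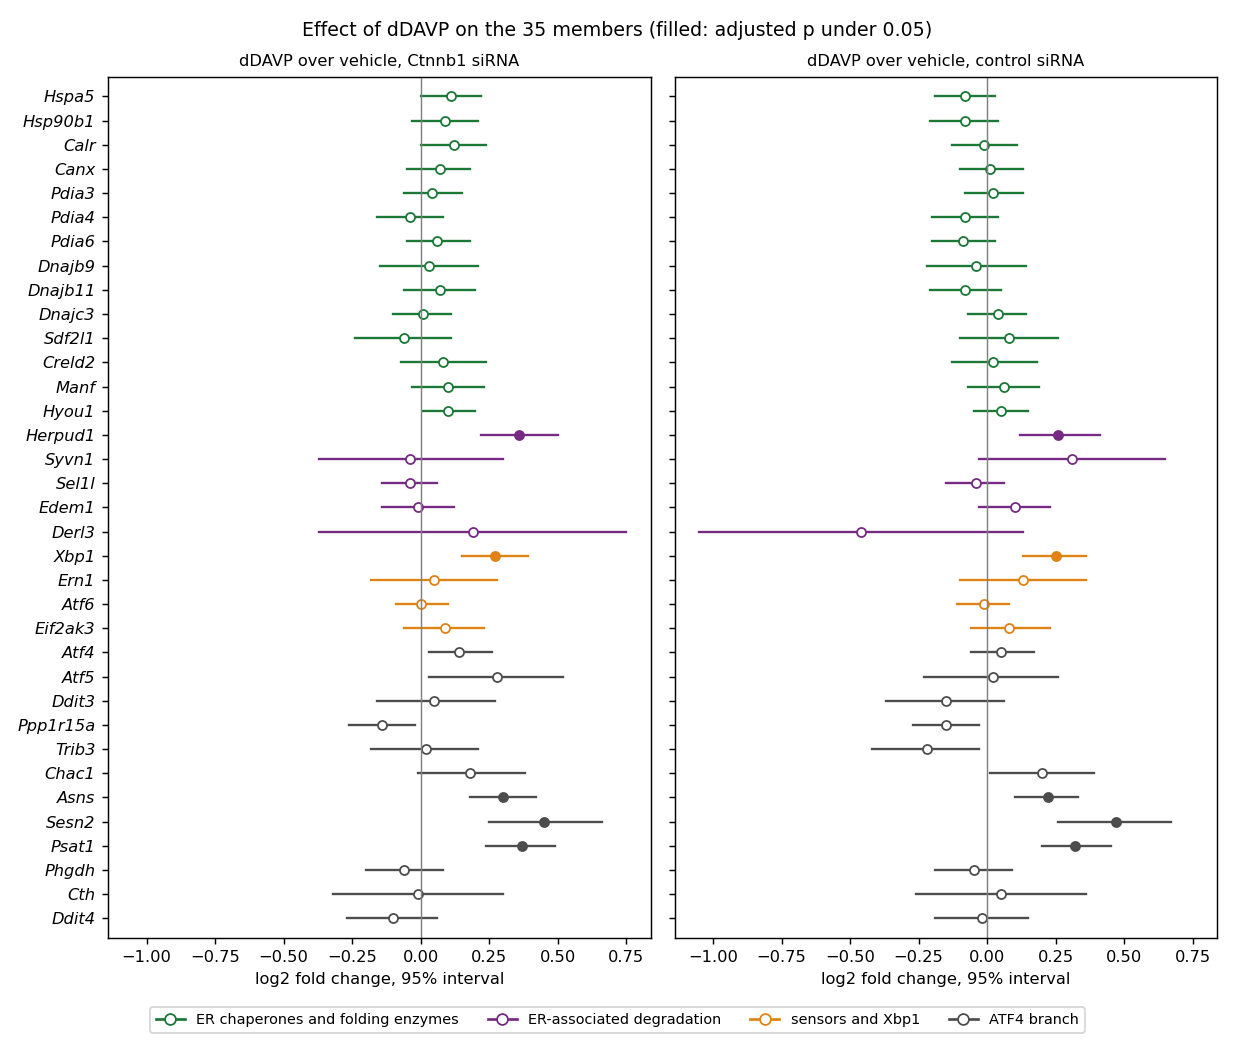
Log2 fold change of dDAVP over vehicle with its 95% interval for each member, with Ctnnb1 siRNA on the left and control siRNA on the right. Filled points passed an adjusted p of 0.05 and colours mark the branch; the same 5 genes are filled in both panels, and no chaperone is.

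Taken separately, each siRNA gave the same 5 higher members and 0 lower ones: Xbp1, Herpud1, Asns, Sesn2 and Psat1. Among all genes 2.78% were called with Ctnnb1 siRNA, 2.08% higher and 0.697% lower, and 2.83% with control siRNA, 1.91% higher and 0.915% lower. edgeR adjusted p-values with Ctnnb1 siRNA were 0.012 for Xbp1, 0.00597 for Herpud1, 0.00583 for Asns, 0.0151 for Sesn2 and 0.00177 for Psat1. With control siRNA they were 0.0235 for Xbp1, 0.0452 for Herpud1, 0.0479 for Asns, 0.0119 for Sesn2 and 0.0055 for Psat1. The average effect of these 5 genes kept its call without each of the 12 libraries in turn, with adjusted p-values of at most 0.0027. Psat1 also kept its call within each siRNA without each library.

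Within Ctnnb1 siRNA, Herpud1 and Asns likewise kept their calls without each library. For Xbp1 the call ended there without vehicle replicate 1 (adjusted p = 0.0775). Sesn2 lost it without Ctnnb1 siRNA vehicle replicate 1 (0.0833), vehicle replicate 3 (0.0817) or dDAVP replicate 2 (0.0561). Within control siRNA, Xbp1 lost its call without control siRNA vehicle replicate 2 (0.114), vehicle replicate 3 (0.114) or dDAVP replicate 3 (0.113). Sesn2 lost it without control siRNA vehicle replicate 1 (0.0524), vehicle replicate 2 (0.0644) or dDAVP replicate 1 (0.0713). Asns lost it in 7 of 12 cases (0.0643 to 0.199), which were those without control siRNA vehicle replicates 2 or 3, any control siRNA dDAVP library, replicate 3 of Ctnnb1 siRNA with vehicle or replicate 1 of Ctnnb1 siRNA with dDAVP. Herpud1 lost it in 8 (0.0537 to 0.199), which were those without any of the 6 control siRNA libraries, replicate 2 of Ctnnb1 siRNA with vehicle or replicate 1 of Ctnnb1 siRNA with dDAVP. The number called with control siRNA was therefore 1 without vehicle replicate 2 and 2 without vehicle replicate 3, dDAVP replicate 1 or dDAVP replicate 3. It was 3 without vehicle replicate 1, dDAVP replicate 2 or Ctnnb1 siRNA dDAVP replicate 1. With Ctnnb1 siRNA it was 3 without vehicle replicate 1. limma on log2 of TPM plus 1 called 1 member, Psat1, within each siRNA.

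The dDAVP effect did not differ detectably between the siRNAs. The interaction test called 0 of the 35 members and 0 of the 16508 genes (0% called), with 2 members at an unadjusted p under 0.05, against 5.02% of all genes; DESeq2 and limma on log2 TPM also called 0 members. The 2 were Hspa5, with an interaction of 0.18 on the log2 scale (95% interval 0.03 to 0.34, edgeR adjusted p = 0.918), and Hsp90b1, with 0.17 (0 to 0.34, adjusted p = 0.918). For the 5 called genes the interaction was 0.03 for Xbp1 (-0.14 to 0.19), 0.10 for Herpud1 (-0.10 to 0.30), 0.08 for Asns (-0.08 to 0.25), -0.01 for Sesn2 (-0.30 to 0.27) and 0.05 for Psat1 (-0.13 to 0.22). The upper bounds for Herpud1 and Asns are close to the size of their average dDAVP effects, 0.31 and 0.26.

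Knockdown of Ctnnb1 left most members without a detectable change. Averaged over the treatments, Ctnnb1 siRNA lowered 1 member, Chac1 (2.86% of members, against 1.85% of all genes, 0.939% higher and 0.909% lower). Chac1 (chr2:119351242-119354326) had 19.6, 18.9 and 17.4 CPM with Ctnnb1 siRNA and dDAVP, against 24.9, 21.0 and 23.2 with control siRNA and dDAVP. With vehicle it had 15.9, 18.7 and 14.7 CPM with Ctnnb1 siRNA, against 20.6, 19.2 and 20.2 with control siRNA. The Ctnnb1 siRNA values lay below the control siRNA values under each treatment, and overlapped them once the treatments were pooled. The average log2 fold change was -0.29 ± 0.065 (SE), which is 1.23-fold lower (edgeR adjusted p = 0.0266). The call ended, with adjusted p-values of 0.0564 to 0.086, without any one of the 3 control siRNA vehicle libraries, control siRNA dDAVP replicates 1 or 3, or Ctnnb1 siRNA vehicle replicates 1 or 3. DESeq2 called Sel1l as well (log2 fold change -0.11, adjusted p = 0.0428), and edgeR did so without Ctnnb1 siRNA dDAVP replicate 3 (-0.13, adjusted p = 0.0202).

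Within one treatment, 0 members were called. With dDAVP the share of all genes called was 0.267%, and 10 members had an unadjusted p under 0.05, against 11.7% of all genes. Of these, 4 were chaperones, all with higher values in Ctnnb1 siRNA libraries: Hspa5 (log2 fold change 0.18, edgeR adjusted p = 0.175), Calr (0.18, 0.198), Hsp90b1 (0.14, 0.353) and Dnajb11 (0.14, 0.390). For each of these 4 genes the 3 Ctnnb1 siRNA values lay above the 3 control siRNA values. DESeq2 called Hspa5 in this contrast (adjusted p = 0.0405), and limma on log2 TPM called 0 members. The other 6 were Ddit3 (0.23), Trib3 (0.20) and Derl3 (0.71), with positive log2 fold changes, and Chac1 (-0.30), Sesn2 (-0.22) and Sel1l (-0.11), with negative ones. With vehicle 0.430% of all genes were called, and 4 members, Chac1, Sesn2, Sel1l and Ppp1r15a, had an unadjusted p under 0.05, against 8.09% of all genes. Their log2 fold changes with vehicle were -0.29, -0.21, -0.11 and -0.12. Hspa5 had a log2 fold change of 0 there, with an interval of -0.11 to 0.11. DESeq2 and limma on log2 TPM called 0 members with vehicle.

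**Figure D4:**
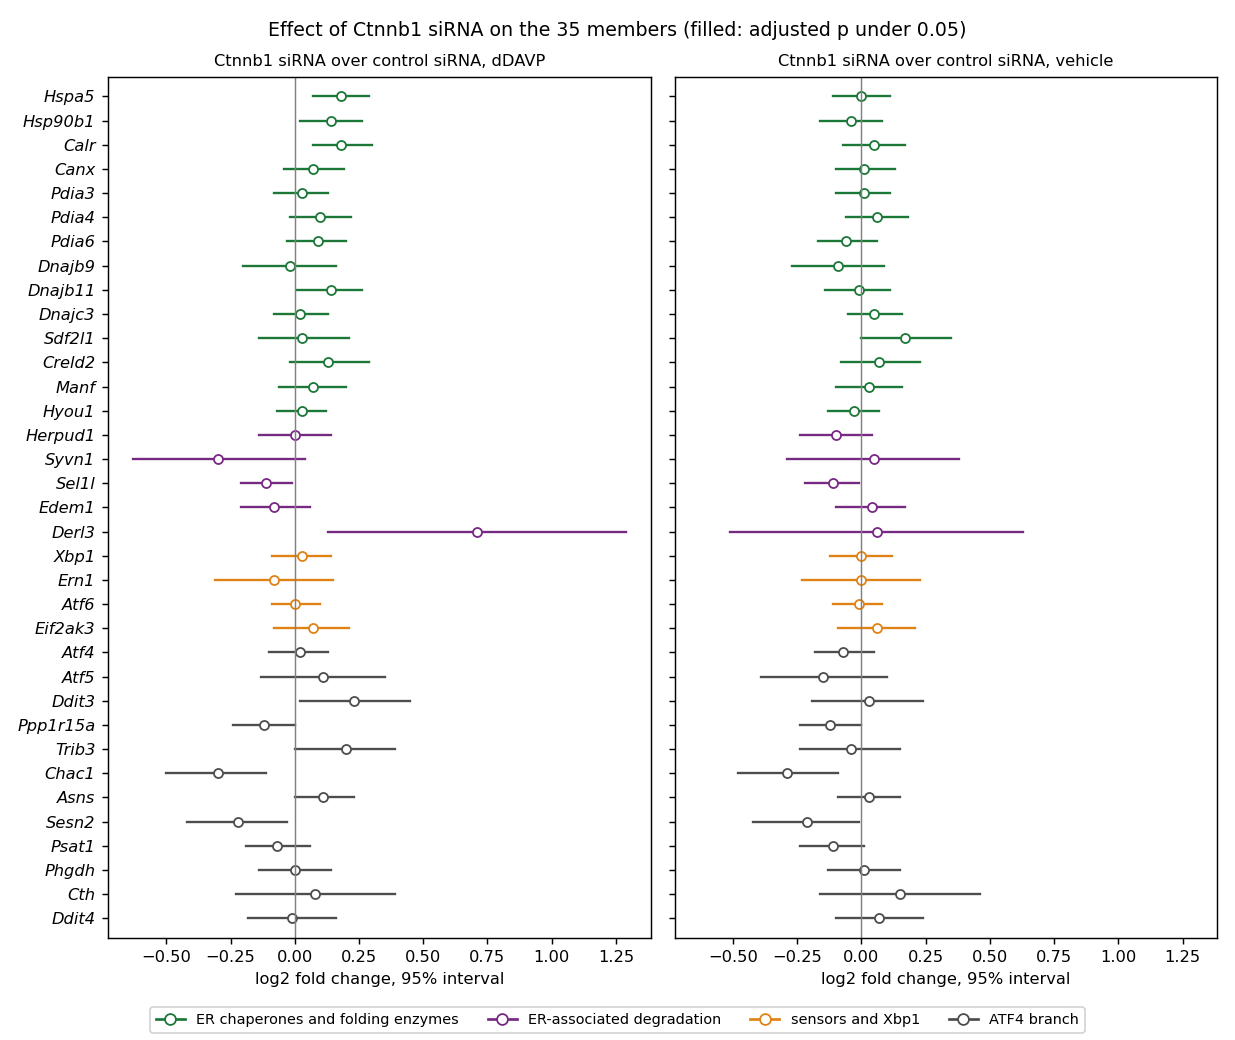
Log2 fold change of Ctnnb1 siRNA over control siRNA with its 95% interval for each member, with dDAVP on the left and vehicle on the right. No point is filled, since 0 members passed an adjusted p of 0.05 in either panel, and Chac1 lies near -0.3 in both.

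Genes around the members were taken from 10 further lists. In the ER itself, 0 of 20 other folding genes, 0 of 18 other degradation genes and 0 of 13 other sensors and factors were called by edgeR for the average effect of dDAVP, with 1, 4 and 2 at an unadjusted p under 0.05, against 19.1% of all genes. DESeq2 called 1 of the folding genes and 1 of the degradation genes, and limma on log2 of TPM plus 1 called 3 and 2. edgeR called 1 degradation gene under the stricter filter, and 1 without Ctnnb1 siRNA dDAVP replicate 3. Of 22 genes of translocation, glycosylation and ER exit, 2 rose (9.09%), a share near the 6.86% of all genes called in this contrast. Sec23b, a subunit of the coat of vesicles that leave the ER, had 137 to 146 CPM with Ctnnb1 siRNA and dDAVP, 113 to 119 with Ctnnb1 siRNA and vehicle, 135 to 138 with control siRNA and dDAVP, and 111 to 115 with control siRNA and vehicle. These ranges do not overlap between treatments. Its log2 fold change was 0.27 on average, with an edgeR adjusted p of 4.01e-05, and 0.27 within each siRNA. Ssr4, a subunit of the translocon, had 0.24 (0.0167), and lost its call without control siRNA vehicle replicates 2 (0.0503) or 3 (0.0568) or Ctnnb1 siRNA vehicle replicate 2 (0.0581).

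On the side of ATF4, 1 of 17 other regulators of the integrated stress response was called, 1 of 9 amino acid transport genes, 3 of 13 genes of amino acid and one-carbon synthesis and 4 of 20 cytosolic aminoacyl-tRNA synthetases. These are 5.88%, 11.1%, 23.1% and 20% of their lists, against 6.86% of all genes, so the shares of the first 2 lists are near that of all genes. Cebpb, a partner of ATF4 on C/EBP-ATF elements, rose by an average log2 fold change of 0.33 (edgeR adjusted p = 0.00107). It had 26.1 to 27.9 CPM with Ctnnb1 siRNA and dDAVP, 19.0 to 20.3 with Ctnnb1 siRNA and vehicle, 24.8 to 27.5 with control siRNA and dDAVP, and 20.7 to 25 with control siRNA and vehicle. Its groups overlapped with control siRNA only. Slc3a2, the heavy chain of several amino acid transporters, rose by 0.22 (2.55e-04), and its dDAVP values all exceeded its vehicle values. Gdf15, a secreted stress signal that stands in the synthesis list as an ATF4 target, rose by 0.37 (0.0066). Cebpb, Slc3a2 and Gdf15 kept their average calls without each library.

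Other calls on this side ended without single libraries. Ass1, which makes argininosuccinate, rose by 0.26 (edgeR adjusted p = 0.0148) and was not called without replicate 2 of Ctnnb1 siRNA with vehicle (0.0505). Shmt2, a mitochondrial one-carbon enzyme, rose by 0.13 (0.0348) and lost its call in 8 of 12 cases (0.0523 to 0.0963). It kept it only without replicate 1 of either vehicle group, or replicates 1 or 3 of Ctnnb1 siRNA with dDAVP. The synthesis list fell to 1 called gene without Ctnnb1 siRNA vehicle replicate 2. For the regulators the number called was 2 without Ctnnb1 siRNA dDAVP replicate 1 and 3 without replicate 3, and for the transport genes it was 2 without Ctnnb1 siRNA dDAVP replicate 2.

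The aminoacyl-tRNA synthetases, which load amino acids onto their tRNAs, had positive average log2 fold changes in 19 of 20 genes, against 48.4% of all genes, with a median of 0.086 against -0.0046 over all genes. With Ctnnb1 siRNA 20 of 20 were positive, with a median of 0.126, 13 at an unadjusted p under 0.05 and 1 called. With control siRNA 16 of 20 were positive, with a median of 0.051, 2 at an unadjusted p under 0.05 and 0 called. The interaction test called 0 of the 20, with 2 at an unadjusted p under 0.05, 18 positive and a median of 0.086. With vehicle, Ctnnb1 siRNA over control siRNA had a median of -0.061, with 5 of 20 positive and 0 called. The 3 of the 4 called genes with the lowest adjusted p were Gars (0.14, edgeR adjusted p = 0.0111), Farsb (0.14, 0.0242) and Wars (0.12, 0.0259). Gars kept its call without each library. Farsb lost it without replicates 2 (0.0544) or 3 (0.0576) of control siRNA with vehicle, replicate 2 of control siRNA with dDAVP (0.0530) or Ctnnb1 siRNA vehicle replicate 2 (0.0830). Wars lost it without control siRNA vehicle replicate 3 (0.0781), Ctnnb1 siRNA vehicle replicates 2 (0.0678) or 3 (0.0625) or Ctnnb1 siRNA dDAVP replicate 1 (0.0567). The list had 1 call without Ctnnb1 siRNA vehicle replicate 2, and 2 without replicate 2 or 3 of control siRNA with vehicle or replicate 2 of control siRNA with dDAVP. limma on log2 of TPM plus 1 called 0 of the 20, and 2 when 5 small structural RNAs were left out of the TPM.

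Stress genes outside the ER were taken for contrast. Of 14 cytosolic heat shock genes, 3 rose and 1 fell on average with dDAVP (28.6% called, against 6.86% of all genes). Of the 3 with the lowest adjusted p, Hspa1b rose by 0.21 (edgeR adjusted p = 0.00362) and Hspa1a by 0.17 (0.0186). Hspa1a and Hspa1b are near-identical copies, so the split of reads between them is uncertain. Cryab, a small heat shock protein, fell by 0.26 (0.00307). It had 64.0 to 68.1 CPM with Ctnnb1 siRNA and dDAVP, 71.1 to 78.4 with Ctnnb1 siRNA and vehicle, 61.0 to 71.5 with control siRNA and dDAVP, and 75.9 to 87.1 with control siRNA and vehicle, so that the treatments did not overlap within either siRNA. Hspa1b and Cryab kept their calls without each library. Hspa1a lost it without control siRNA vehicle replicates 2 (0.0570) or 3 (0.0568) or Ctnnb1 siRNA vehicle replicate 1 (0.0513), and the list had 2 calls without control siRNA vehicle replicate 2. Of 10 genes of the mitochondrial stress response, 2 were called (20%, against 6.86% of all genes). The chaperones Hspa9 (0.21, 0.00794) and Hspd1 (0.16, 0.0200) rose. Hspd1 lost its call without control siRNA vehicle replicates 2 (0.0512) or 3 (0.0588) or Ctnnb1 siRNA vehicle replicate 1 (0.0529), which left 1 call in the list, and limma on log2 of TPM plus 1 called 0. Within control siRNA, the called genes of the 10 lists were Sec23b, Slc3a2 and Cryab. Within Ctnnb1 siRNA they were Sec23b, Cebpb, Gars, Slc3a2, Hspa1b and Hspa9. The 10 lists held 9 to 22 tested genes each, and none had more than 1 call within either siRNA. Of all genes, 2.83% were called with control siRNA and 2.78% with Ctnnb1 siRNA. In lists this short, 1 call cannot be set apart from these shares.

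**Figure D5:**
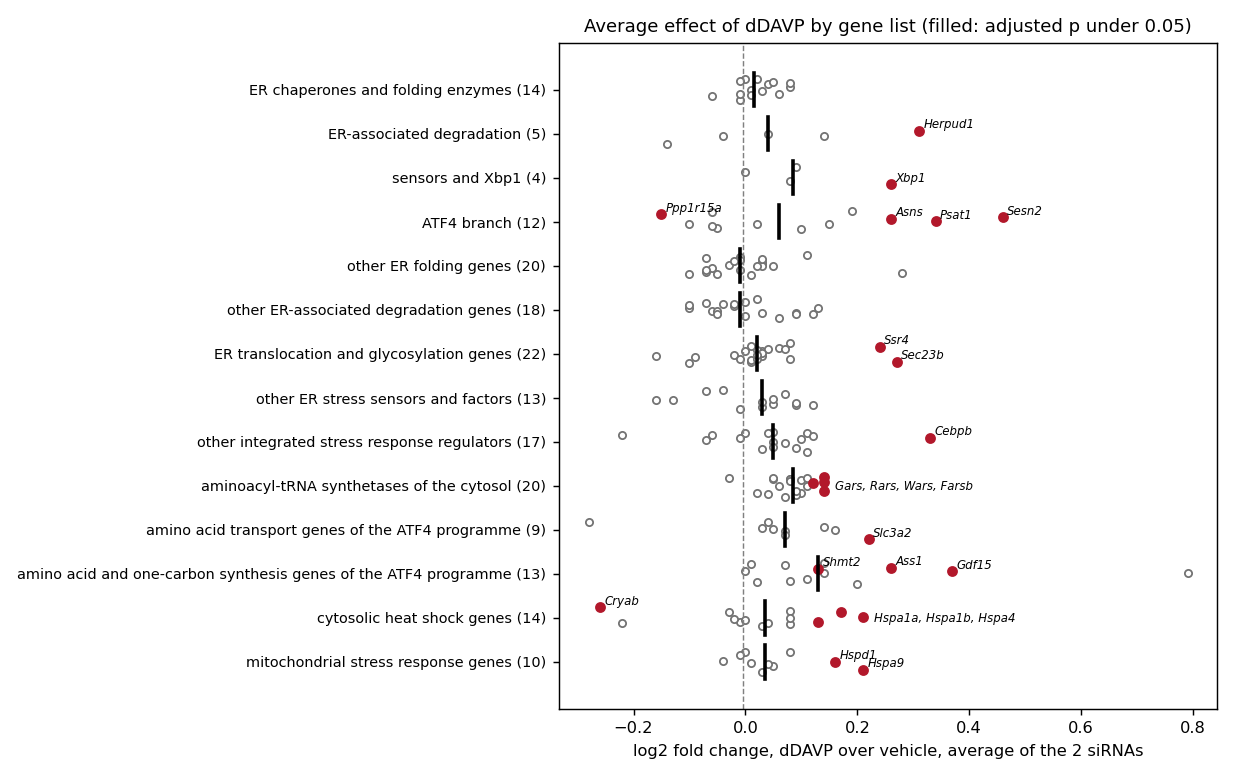
Average log2 fold change of dDAVP over vehicle for every tested gene of the 4 member groups and the 10 further lists, with the number of genes in brackets, a black bar at the median of each list and a dashed line at -0.0046, the median of all genes. Filled, named points passed an adjusted p of 0.05; the 14 ER chaperones lie within -0.06 to 0.08, and the open point farthest to the right is Cbs, at 0.79, which was not called.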

How the data were processed

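The 12 libraries, in 4 groups, were made from total RNA after removal of ribosomal RNA. The authors deposited raw read counts per gene and TPM, which are scaled to transcript length and library size, for the same libraries. The submitters' processing notes name FastQC, Trimmomatic, HISAT2, StringTie and DESeq2, with the builds GRCm38 and mm10; their settings are not given in the sources used here. From the deposited counts, edgeR 4.0.16 in R 4.3.3 fitted 1 coefficient per group to all 12 libraries (TMM scaling, filterByExpr, robust quasi-likelihood F test, 8 residual degrees of freedom). The filter left 16508 genes, with 99.968% of reads, and the common biological coefficient of variation was 8.26%. Genes were called at a Benjamini-Hochberg adjusted p under 0.05 over all tested genes, for 7 contrasts: dDAVP within each siRNA, siRNA within each treatment, their interaction and the 2 average effects. Intervals are 95%. The contrasts share libraries and are not independent of each other. Levels between genes use the deposited TPM.

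The fit was tested on simulated counts whose changes were larger than those of the called members. That test does not cover effects of their size. Alternatives were DESeq2 1.42.0, RLE scaling, no filter and a filter of 1 CPM in 3 libraries, a fit of only the 2 groups compared, the replicate number as a block, limma 3.58.1 on log2 of the deposited TPM plus 1 or 0.1, and leaving out each library. Promoters were searched with Python 3.11.15. The members and lists were chosen with earlier results of these data known. Hspa5, Xbp1, Atf4, Ddit3 and every member called in any contrast are given in full, the others by range and count with the highest and lowest level of each branch and, after their values were seen, by the effects quoted. From each other list up to 3 called genes per contrast with the lowest adjusted p are named.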

Additional observations from a re-analysis of the deposited data

How the results depend on the processing

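Among the recomputed results that were called in the main fit, no direction reversed. Direction was not compared for members that were not called there. The number of members called for the average effect of dDAVP was 5 to 7 under all alternatives, and Xbp1, Herpud1, Asns, Sesn2 and Psat1 were called in each of them. For dDAVP with Ctnnb1 siRNA, where 5 were called, a fit of only the 2 groups gave 3, limma on log2 of TPM plus 1 gave 1, plus 0.1 gave 1 and plus 1 without a filter gave 0, and leaving out 1 library gave 3 to 6. For dDAVP with control siRNA, where 5 were called, no filter gave 3, the replicate block 3, limma on log2 of TPM plus 1 gave 1, plus 0.1 gave 1 and plus 1 without a filter gave 0, and leaving out 1 library gave 1 to 5. For the average effect of Ctnnb1 siRNA, where 1 was called, DESeq2 gave 2, limma on TPM without a filter 0, and leaving out 1 library 0 to 2. For Ctnnb1 siRNA with dDAVP, where 0 were called, DESeq2 gave 1. The causes were not tested. When 5 small structural RNAs were left out of TPM, an alternative chosen after seeing the data, limma called 4 members within each siRNA. Among the other lists, for the average effect of dDAVP, limma on log2 of TPM plus 1 called 4 translocation genes (edgeR 2), 2 regulators (1), 1 synthesis gene (3) and 2 heat shock genes (4). The call of Ppp1r15a ended under no filter, the replicate block and unfiltered TPM.

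The labels do not say what a replicate number marks. Of 18 pairs of same-numbered libraries, 2 had deviations from their group means correlated above 0.1 (r from -0.124 to 0.21). These correlations cannot decide whether same-numbered libraries shared a culture, day or batch. The replicate block left the other counts of members within 1.5 times. Derl3, at 1.46 TPM the lowest of the members, rests on the fewest reads per transcript length. With 3 libraries a group, small changes can be missed, and a gene that was not called is not shown to be unchanged.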
